A study of Mus musculus with 7 samples.

Results

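Nuclear receptor genes encode transcription factors that bind DNA and, in most cases, a small lipophilic ligand. The genes described here are 44 members of that family, named by gene symbol without regard to their values; the clock receptors Nr1d1 and Nr1d2 were left out. Of the 44, 42 have a probe set on the array with that symbol alone, among 19938 genes with such a probe set, and each of the 42 has exactly 1 probe set. Nr1h2, which encodes LXR beta, and Nr2e3 have none in the annotation used and were not analysed here.

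The livers of 3 Trpm6-deficient and 4 control mice were profiled, with 1 array (GeneChip Mouse Gene 1.0 ST) per mouse. Trpm6 encodes a channel kinase that conducts Mg2+. Trpm6-deficient mice carried exon 17 deleted on both Trpm6 alleles together with a Sox2-Cre transgene (Trpm6 Δ17/Δ17;Sox2-Cre), and controls carried 1 floxed and 1 wild-type Trpm6 allele (Trpm6 fl/+). Sox2-Cre is active in the early embryo, so the deletion is not limited to hepatocytes, and since the genotype given for controls names no Cre, the effects of the deletion and of Cre cannot be told apart. All mice were male littermates on the C57BL/6 background, with no treatment named, and sampled from the left liver lobe. Trpm6-deficient 2 and controls 1 and 2 were 12 weeks old, and Trpm6-deficient 1 and 3 and controls 3 and 4 were 13 weeks old, so that both ages hold both groups.

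Most receptors of this family act in the nucleus as homodimers, as monomers or as heterodimers with a retinoid X receptor (RXR), and many read the hexamer AGGTCA or repeats of it. In liver, CAR and PXR sense drugs and other foreign compounds, FXR senses bile acids, LXR senses oxysterols and PPAR alpha senses fatty acids, and each drives genes that handle the compound it senses. HNF4 alpha and LRH-1 hold up the programme of the hepatocyte, and the hormone receptors carry the signals of glucocorticoids, thyroid hormone and sex steroids. The comparison asked whether mRNA of these receptors differed between Trpm6-deficient and control livers.

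The sequences before 3 of these genes are shown, Nr1i3 and Esr1, which had the smallest p-values, and Rxra, the main RXR of liver. They are RefSeq promoter windows of the build GRCm38.p6, from 250 bases before to 50 bases after an annotated start, in gene orientation. Capitals mark the half-site AGGTCA, searched on both strands (TGACCT on the strand shown), and TTCNNNGAA, the core of a STAT site, and in these windows no match of one overlaps a match of the other.
Nr1i3: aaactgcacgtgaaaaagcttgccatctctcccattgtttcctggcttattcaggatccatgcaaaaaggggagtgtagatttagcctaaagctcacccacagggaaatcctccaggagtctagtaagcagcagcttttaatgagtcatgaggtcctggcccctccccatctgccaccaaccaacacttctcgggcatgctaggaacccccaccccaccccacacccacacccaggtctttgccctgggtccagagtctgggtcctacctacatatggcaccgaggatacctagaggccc
Esr1: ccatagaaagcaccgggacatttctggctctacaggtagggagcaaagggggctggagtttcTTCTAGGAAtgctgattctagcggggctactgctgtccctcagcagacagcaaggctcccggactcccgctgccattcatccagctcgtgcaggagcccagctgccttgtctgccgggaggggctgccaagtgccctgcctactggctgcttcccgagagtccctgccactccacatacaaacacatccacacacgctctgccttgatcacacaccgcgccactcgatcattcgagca
Rxra: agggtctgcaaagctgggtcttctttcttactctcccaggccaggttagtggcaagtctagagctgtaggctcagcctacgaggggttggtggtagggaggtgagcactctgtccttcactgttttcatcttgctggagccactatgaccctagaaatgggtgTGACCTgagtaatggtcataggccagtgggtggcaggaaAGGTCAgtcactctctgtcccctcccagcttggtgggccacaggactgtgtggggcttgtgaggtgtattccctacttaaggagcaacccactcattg
The Nr1i3 window, chr1:171213720-171214019 on the plus strand, is the only one of that gene and holds neither string. The Esr1 window, chr10:4709908-4710207 on the plus strand, is 1 of 2 and holds TTCNNNGAA, beginning 188 bases before the start. The Rxra window, chr2:27709042-27709341 on the plus strand, is 1 of 2 and holds the half-site at 87 and 48 bases before the start. The other window of Esr1 and the other window of Rxra hold neither string, so for both genes the window shown is the one with a match. Of 59 windows of 38 of the 42 receptor genes, 11 (18.6%) hold AGGTCA, against 16.3% of all 32851 windows, and 6 (10.2%) hold TTCNNNGAA, against 8.3% of all windows. These matches describe the letters of the windows and are not binding sites.

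Values are log2 values after robust multi-array averaging (RMA), so a log2 difference of 1 is a doubling, and the level of one gene cannot be set against that of another because probes differ in brightness. Array medians lay between 6.43 and 6.48. Trpm6 itself was at 5.50, 5.37 and 5.50 in Trpm6-deficient livers 1 to 3, against 5.53, 5.51, 5.50 and 5.50 in controls 1 to 4 (log2 difference -0.05, standard error (SE) 0.05, adjusted p = 0.882 in limma). Which exons that probe set reads was not examined, and its values lay in the range of genes silent in liver, so it does not check the deletion. Hepatocyte markers were on average at 13.96 to 14.01 in Trpm6-deficient and 13.88 to 14.05 in control livers, and none of the 7 measured passed the nominal threshold, an unadjusted p of 0.05. Kupffer cell markers averaged 8.80, 8.91 and 8.99 in Trpm6-deficient livers 1 to 3, against 8.52, 9.41, 9.48 and 9.27 in controls 1 to 4, and endothelial markers averaged 9.25, 9.59 and 9.37 in Trpm6-deficient livers, against 9.02, 9.89, 9.65 and 9.69 in controls. None of 10 in either list was past the nominal threshold, but control 1 stood apart: it was the lowest of all livers for 7 Kupffer and 8 endothelial markers, while controls 2 to 4 lay above every Trpm6-deficient liver for 8 and 5. The median log2 difference was -0.31 for Kupffer and -0.18 for endothelial markers, and it was -0.51 and -0.31 without control 1, and -0.20 and -0.15 without control 3. Control 3 stood apart in clock genes. Dbp was at 7.03 to 7.37 in Trpm6-deficient livers, against 10.38 in control 3 and 7.21 to 8.64 in the other controls, and Arntl was at 8.59 to 8.79 in Trpm6-deficient livers, against 6.51 in control 3 and 8.54 to 8.61 in the other controls. Both genes were singled out after their values were seen, and the part of these differences between controls in the receptor values was not tested.

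None of the 42 receptor genes reached an adjusted p of 0.1 in limma, which 0.166% of all genes did. The nominal threshold was passed by 7 receptor genes (16.7%), against 7.01% of all genes. Of these, Esr1, Nr1i3, Nr5a2 and Rxrg were higher in Trpm6-deficient livers (higher in 3.59% of all genes), and Rxra, Rxrb and Nr2c2 were lower (lower in 3.43% of all genes). The median log2 difference over the 42 was 0.01, against -0.0058 over all genes, and the median size of the difference was 0.098, against 0.069. The median SD within groups was also larger, 0.152 against 0.119.
In 3 of the 42 (7.14%) the livers of both groups did not overlap, namely Esr1, Nr1i3 and Rxrb, against 5.57% of all genes. For each of these 3 the exact permutation test (2-sided) gave p = 0.0286, the smallest that the 35 splits of 7 arrays allow. Without control 1, the genes past the nominal threshold were Esr1, Nr1i3, Rxrg, Rxra, Rxrb, Nr2c2 and Ppara, and without control 3 only Esr1, Nr1i3 and Rxrb. The precision of single genes was limited by the number of arrays. Over the 42, the half-width of the 95% interval had a median of 0.26, and 25 of the 35 genes that were not past the nominal threshold had an interval that lay within 0.5 on either side of 0.

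**Figure D1:**
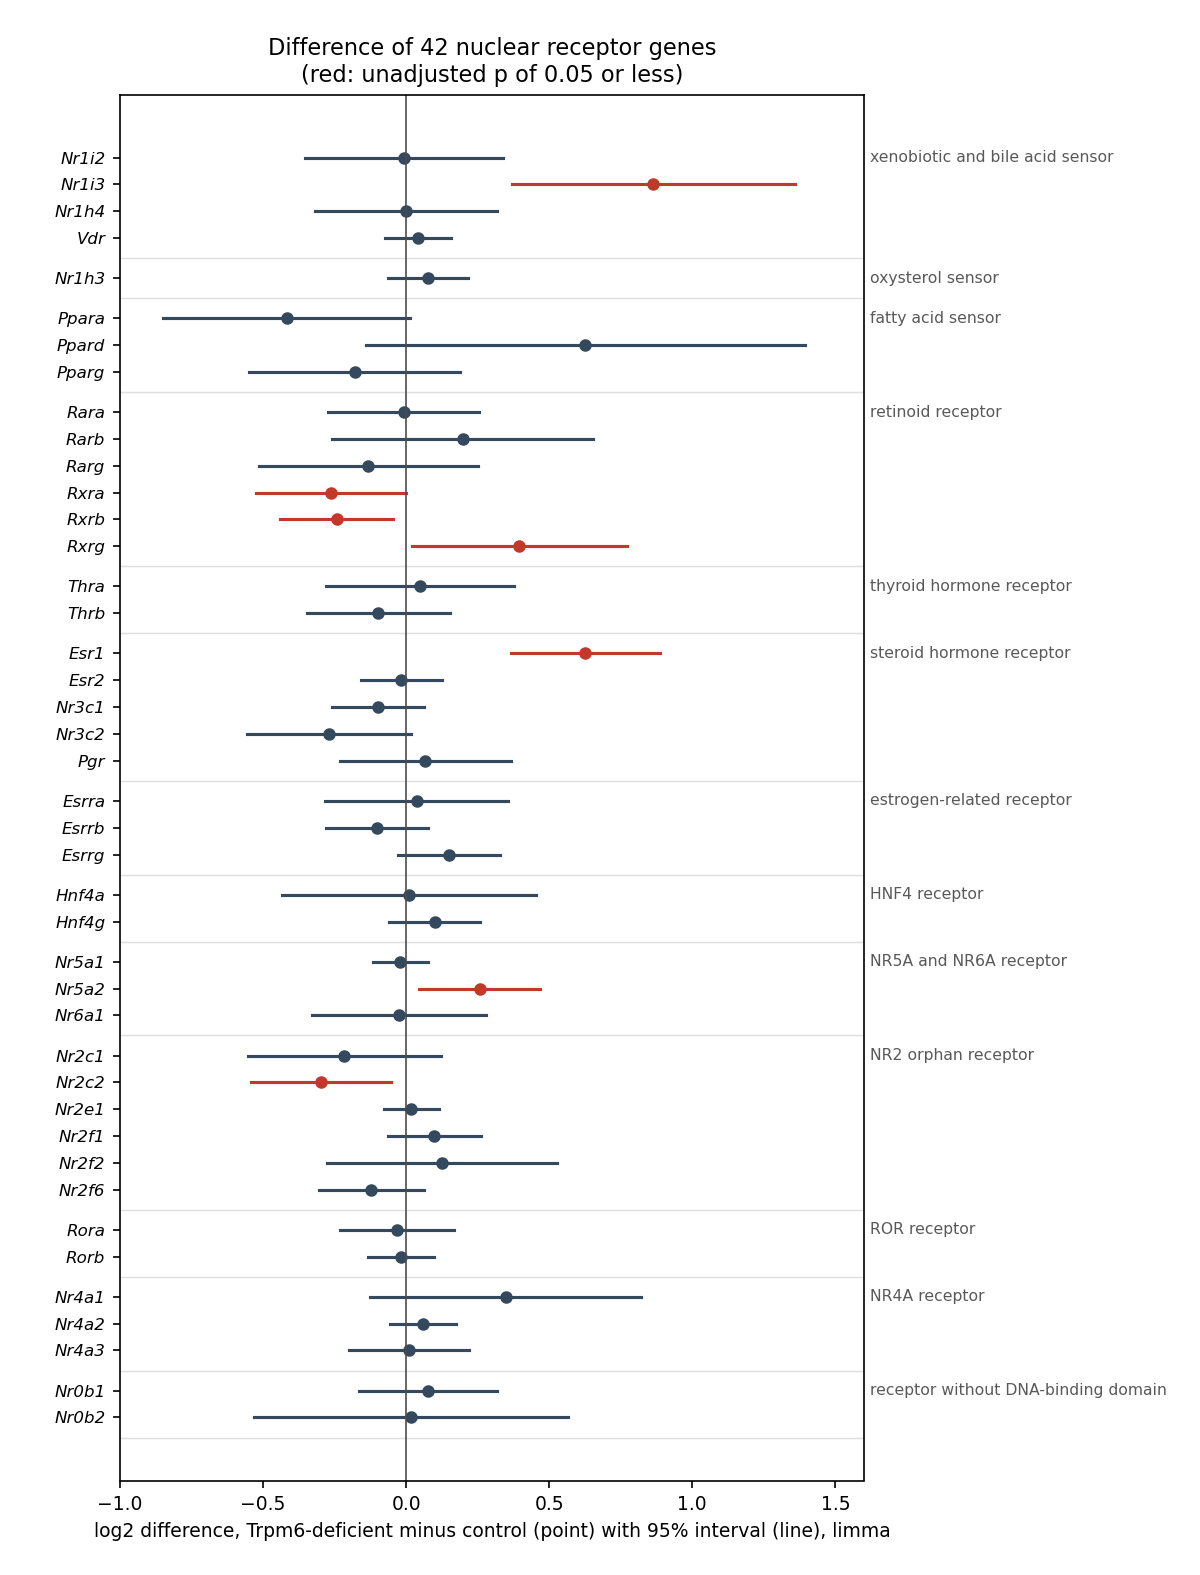
Log2 difference (Trpm6-deficient minus control, x axis) of the 42 receptor genes, grouped by role, with limma's 95% interval as a line; red marks genes past the nominal threshold. Nr1i3 (0.86) and Esr1 (0.63) lie farthest from 0 among the red points, while Ppard (0.63) has a wider interval that crosses 0.

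Among the sensors of foreign compounds and bile acids, only Nr1i3 was past the nominal threshold. Nr1i3, which encodes CAR, the constitutive androstane receptor that switches on drug metabolism, was at 10.86, 10.54 and 11.02 in Trpm6-deficient livers 1 to 3, against 9.93, 9.49, 10.27 and 10.08 in controls 1 to 4. Every Trpm6-deficient liver was above every control, with Trpm6-deficient 2 the lowest of its group and control 2 the lowest of all. The log2 difference was 0.86 (SE 0.21, 95% interval 0.37 to 1.36), or 1.82-fold, with an unadjusted p of 0.00477 and an adjusted p of 0.429 in limma. At 12 weeks it was 0.83 and at 13 weeks 0.77, and with each liver left out in turn it lay between 0.71 and 1.00. Here and below, each 12-week value rests on Trpm6-deficient 2 as the only Trpm6-deficient liver.
Nr1i2, which encodes PXR, the pregnane X receptor that shares many target genes with CAR, was at 10.06, 9.72 and 10.19 in Trpm6-deficient livers 1 to 3, against 9.89, 10.09, 9.81 and 10.20 in controls 1 to 4. Its groups covered nearly the same range, with a log2 difference of -0.01 (95% interval -0.35 to 0.34). Nr1h4, the gene of the bile acid receptor FXR, was at 10.29, 10.49 and 10.30 in Trpm6-deficient livers 1 to 3, against 10.29, 10.54, 10.54 and 10.07 in controls 1 to 4. Both means were 10.36, and the 95% interval of the difference ran from -0.32 to 0.32. Vdr, the vitamin D receptor gene, ranged from 5.29 to 5.33 in Trpm6-deficient and from 5.18 to 5.29 in control livers, and took only 3 distinct values over the 7 arrays.

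**Figure D2:**
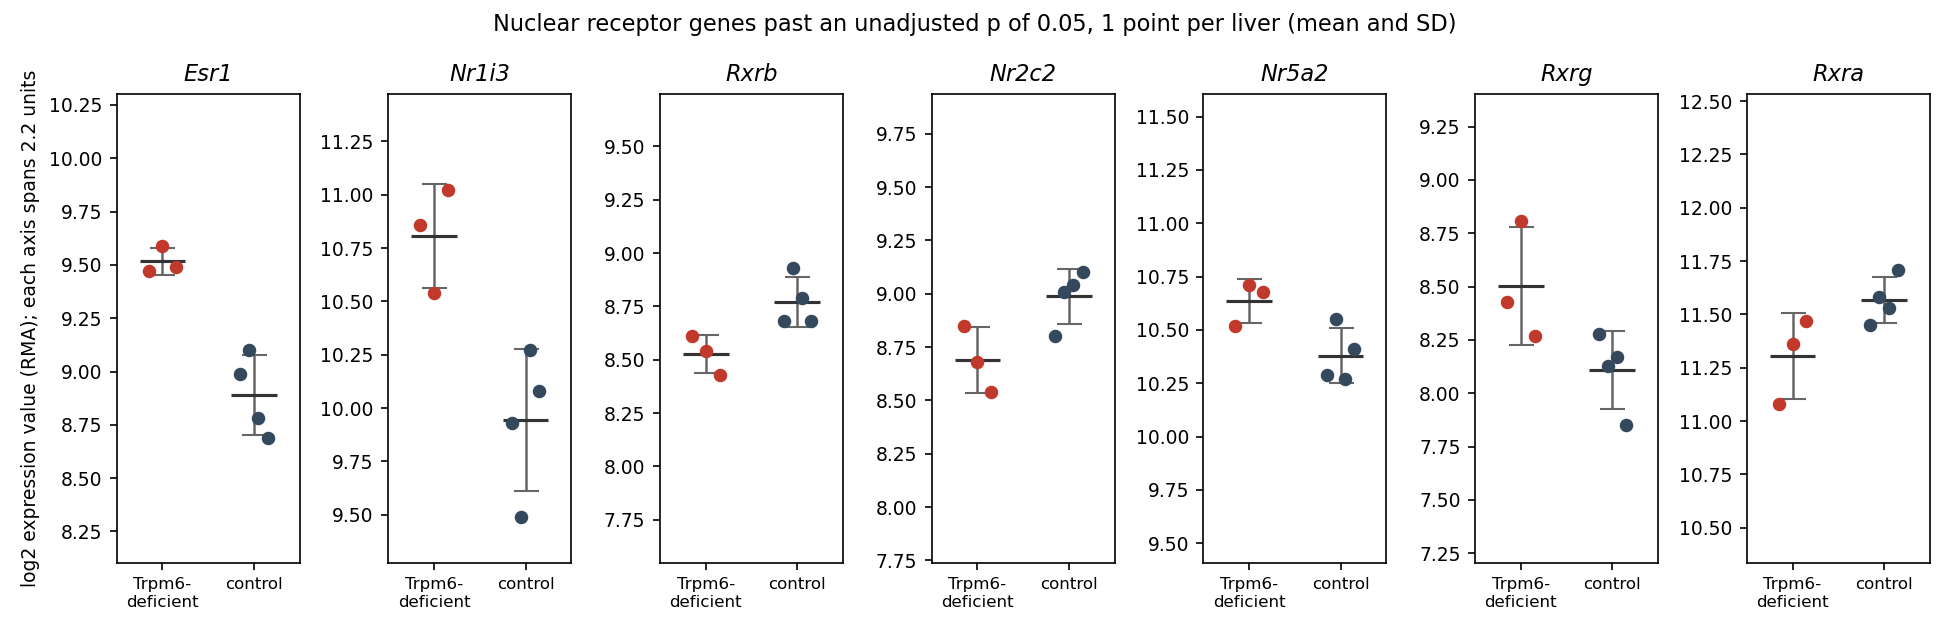
Log2 values of the 7 receptor genes past the nominal threshold, with 1 point per liver, the mean as a line and the SD as bars (Trpm6-deficient, n = 3; control, n = 4); each vertical axis spans the same number of log2 units. The groups do not overlap for Esr1, Nr1i3 and Rxrb, and overlap for the other 4 genes.

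Nr1h3, which encodes LXR alpha, the oxysterol receptor that raises cholesterol export and fatty acid synthesis, was at 10.69, 10.66 and 10.80 in Trpm6-deficient livers 1 to 3, against 10.55, 10.66, 10.69 and 10.66 in controls 1 to 4. Its values lay close together, with an SD of 0.07 in Trpm6-deficient and 0.06 in control livers. Between the groups it differed by 0.08 (95% interval -0.06 to 0.22, unadjusted p = 0.231 in limma).

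The fatty acid receptors did not pass the test and pointed different ways. Ppara, which encodes the PPAR that drives fatty acid oxidation in liver, was at 10.70, 11.12 and 10.52 in Trpm6-deficient livers 1 to 3, against 10.98, 11.29, 11.47 and 11.05 in controls 1 to 4. Trpm6-deficient 1 and 3 lay below all controls and Trpm6-deficient 2 lay among them. Its log2 difference was -0.42 (SE 0.18, unadjusted p = 0.0560, adjusted p = 0.754 in limma). It was -0.33 without control 3, which was the highest control, and passed the nominal threshold without Trpm6-deficient 2 (-0.59) and without control 1 (-0.49). It was -0.02 at 12 weeks and -0.65 at 13 weeks, where the 12-week value rests on 1 Trpm6-deficient liver.
Ppard, the gene of a PPAR found in many tissues, ranged from 8.93 to 10.32 in Trpm6-deficient and from 8.76 to 9.21 in control livers. The SD of its Trpm6-deficient values, 0.70, was the largest among the receptor genes, since Trpm6-deficient 1 lay within the controls and the others above them. Its log2 difference was 0.63 (SE 0.32, unadjusted p = 0.0939 in limma) and was not past the nominal threshold. Without Trpm6-deficient 1 it was 1.00 and past that threshold, and without Trpm6-deficient 2 it was 0.31 and not past it; this gene was singled out after its values were seen. Pparg, the PPAR best known from fat cells, ranged from 8.31 to 8.76 in Trpm6-deficient and from 8.61 to 9.07 in control livers (log2 difference -0.18).

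RXR genes, which supply the common partner of CAR, PXR, FXR, LXR and the PPARs, were all past the nominal threshold, with Rxra and Rxrb lower and Rxrg higher in Trpm6-deficient livers. Rxra was at 11.08, 11.36 and 11.47 in Trpm6-deficient livers 1 to 3, against 11.45, 11.58, 11.53 and 11.71 in controls 1 to 4. Only Trpm6-deficient 3 overlapped the controls, by passing control 1, and Trpm6-deficient 1 was the lowest. This gave a log2 difference of -0.26 (95% interval -0.53 to -0.0019, unadjusted p = 0.0488, adjusted p = 0.724 in limma).
Rxrb was at 8.61, 8.54 and 8.43 in Trpm6-deficient livers 1 to 3, against 8.68, 8.93, 8.79 and 8.68 in controls 1 to 4. All Trpm6-deficient values lay below all controls, with a log2 difference of -0.24 (SE 0.08, unadjusted p = 0.0225, adjusted p = 0.645 in limma). Rxrg, the RXR best known from muscle and brain, was at 8.43, 8.81 and 8.27 in Trpm6-deficient livers 1 to 3, against 8.28, 8.13, 8.17 and 7.85 in controls 1 to 4. Trpm6-deficient 3 fell just short of control 1 and the other Trpm6-deficient livers were above all controls, giving a log2 difference of 0.40 (SE 0.16, unadjusted p = 0.0416, adjusted p = 0.699 in limma).
All 3 RXR genes kept their sign at both ages, with -0.16 and -0.35 for Rxra, -0.27 and -0.22 for Rxrb and 0.61 and 0.34 for Rxrg at 12 and 13 weeks. At 12 weeks the only Trpm6-deficient liver was Trpm6-deficient 2. When each liver was left out in turn, the log2 difference lay between -0.35 and -0.15 for Rxra (smallest without Trpm6-deficient 1), between 0.24 and 0.51 for Rxrg (smallest without Trpm6-deficient 2) and between -0.29 and -0.19 for Rxrb. Rxra and Rxrg stayed past the nominal threshold only without Trpm6-deficient 3 and without control 1, whereas Rxrb stayed past it except without Trpm6-deficient 2 (unadjusted p = 0.0507 in limma) and without Trpm6-deficient 3 (0.0767).
The retinoic acid receptors, which bind retinoic acid and pair with RXR, were not past it. Rara ranged from 8.23 to 8.49 in Trpm6-deficient and from 8.11 to 8.47 in control livers, Rarb from 7.71 to 8.11 in Trpm6-deficient and from 7.33 to 8.06 in control livers, and Rarg from 6.63 to 6.83 in Trpm6-deficient and from 6.54 to 7.21 in control livers.

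Thrb, which encodes the main thyroid hormone receptor of liver, was at 9.06, 9.26 and 9.24 in Trpm6-deficient livers 1 to 3, against 9.24, 9.51, 9.12 and 9.27 in controls 1 to 4. The groups overlapped, with a log2 difference of -0.10 (95% interval -0.35 to 0.15). Thra, the other thyroid hormone receptor gene, ranged from 9.03 to 9.44 in Trpm6-deficient and from 8.92 to 9.36 in control livers.

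Of the steroid hormone receptors, Esr1, the gene of estrogen receptor alpha, the form that liver expresses, had the smallest p of all 42 genes. It was at 9.47, 9.59 and 9.49 in Trpm6-deficient livers 1 to 3, against 8.99, 9.10, 8.78 and 8.69 in controls 1 to 4. The Trpm6-deficient livers lay close together (SD 0.06) and the lowest of them was above the highest control. The log2 difference was 0.63 (SE 0.11, 95% interval 0.37 to 0.89), or 1.54-fold, with an unadjusted p of 0.000896 and an adjusted p of 0.232 in limma. It was 0.55 at 12 weeks and 0.75 at 13 weeks, and lay between 0.56 and 0.70 with each liver left out in turn.
The remaining steroid receptor genes were not past the nominal threshold. Nr3c1, which encodes the glucocorticoid receptor, was at 9.43, 9.45 and 9.22 in Trpm6-deficient livers 1 to 3, against 9.45, 9.51, 9.45 and 9.45 in controls 1 to 4. Trpm6-deficient 3 was the lowest and the other livers lay within 0.1 of one another, so that the log2 difference of -0.10 (95% interval -0.26 to 0.06) rests mostly on it; without it the difference was -0.03. Nr3c2, which encodes the mineralocorticoid receptor, ranged from 7.37 to 7.70 in Trpm6-deficient and from 7.66 to 8.02 in control livers (log2 difference -0.27, unadjusted p = 0.0618 in limma). Esr2, the gene of estrogen receptor beta, ranged from 5.38 to 5.56 in Trpm6-deficient and from 5.45 to 5.56 in control livers, and Pgr, the progesterone receptor gene, from 5.57 to 5.80 in Trpm6-deficient and from 5.30 to 5.73 in control livers.
The estrogen-related receptors, orphan receptors that act on genes of mitochondrial metabolism, overlapped between groups. Esrra ranged from 8.21 to 8.50 in Trpm6-deficient and from 8.04 to 8.56 in control livers, Esrrb from 6.15 to 6.35 in Trpm6-deficient and from 6.29 to 6.48 in control livers, and Esrrg from 6.94 to 7.02 in Trpm6-deficient and from 6.67 to 6.94 in control livers.

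**Figure D3:**
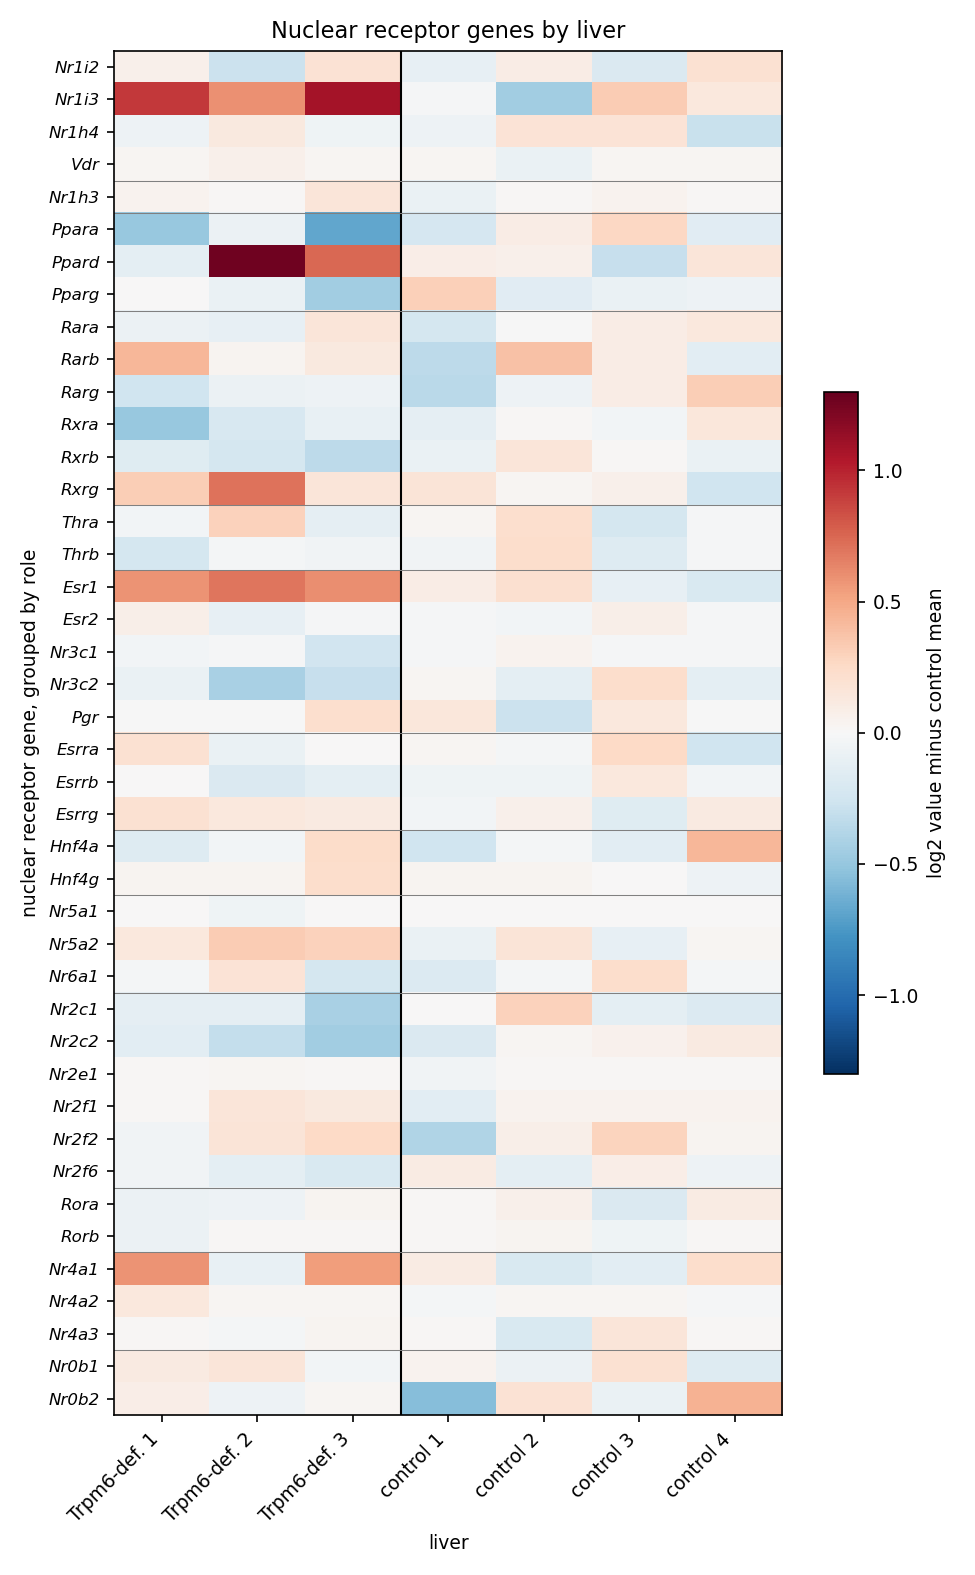
Log2 value of each receptor gene in each liver minus the mean of the 4 control livers, with the 3 Trpm6-deficient livers left of the line and genes grouped by role. Nr1i3 and Esr1 are positive in all 3 Trpm6-deficient livers, whereas Ppard is positive in 2 of them and Nr4a1 in 2.

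Of the receptors that hold up the hepatocyte programme, Nr5a2 was past the nominal threshold and Hnf4a was not. Hnf4a, the gene of HNF4 alpha, was at 12.46, 12.59 and 12.87 in Trpm6-deficient livers 1 to 3, against 12.37, 12.60, 12.49 and 13.06 in controls 1 to 4. Its groups overlapped fully, with a log2 difference of 0.01 (95% interval -0.43 to 0.45). Hnf4g, the gene of its gut relative HNF4 gamma, ranged from 4.98 to 5.18 in Trpm6-deficient and from 4.88 to 4.98 in control livers.
Nr5a2, which encodes LRH-1, a regulator of bile acid and cholesterol genes, was at 10.52, 10.71 and 10.68 in Trpm6-deficient livers 1 to 3, against 10.29, 10.55, 10.27 and 10.41 in controls 1 to 4. Only control 2 reached into the Trpm6-deficient range. The log2 difference was 0.26 (SE 0.09, unadjusted p = 0.0247, adjusted p = 0.650 in limma), with 0.29 at 12 weeks and 0.26 at 13 weeks. It stayed past the nominal threshold without Trpm6-deficient 1, without control 2 and without control 4, and not without any of the other 4 livers. Nr5a1, the gene of SF-1 in adrenal gland and gonads, was at 6.88 on 6 of 7 arrays and at 6.82 in Trpm6-deficient 2, and Nr6a1, the germ cell nuclear factor gene, ranged from 7.56 to 7.96 in Trpm6-deficient and from 7.61 to 8.01 in control livers.

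Nr2c2, the gene of the orphan receptor TR4, was at 8.85, 8.68 and 8.54 in Trpm6-deficient livers 1 to 3, against 8.80, 9.01, 9.04 and 9.10 in controls 1 to 4. Trpm6-deficient 1 lay above control 1, and the other Trpm6-deficient livers were below all controls. The log2 difference was -0.30 (SE 0.10, unadjusted p = 0.0242, adjusted p = 0.649 in limma), with -0.23 at 12 weeks and -0.38 at 13 weeks, and it stayed past the nominal threshold without Trpm6-deficient 1 and without control 1 but not without any of the other 5 livers. Nr2c1, the gene of its close relative TR2, ranged from 8.93 to 9.24 in Trpm6-deficient and from 9.17 to 9.65 in control livers (log2 difference -0.22, unadjusted p = 0.170 in limma).
The COUP family, orphan receptors with roles in development and metabolism, was not past the threshold. Nr2f1 ranged from 6.03 to 6.17 in Trpm6-deficient and from 5.88 to 6.06 in control livers, Nr2f2 from 8.47 to 8.77 in Trpm6-deficient and from 8.12 to 8.80 in control livers, and Nr2f6 from 9.36 to 9.51 in Trpm6-deficient and from 9.43 to 9.66 in control livers. Nr2e1, the brain receptor gene Tlx, ranged from 6.29 to 6.30 in Trpm6-deficient and from 6.23 to 6.29 in control livers. Rora, a receptor gene that acts on clock genes, ranged from 10.23 to 10.34 in Trpm6-deficient and from 10.11 to 10.41 in control livers, and its brain relative Rorb from 5.32 to 5.41 in Trpm6-deficient and from 5.34 to 5.43 in control livers.

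NR4A receptors are immediate early genes, induced within a short time by many stimuli. Nr4a1 ranged from 6.27 to 6.95 in Trpm6-deficient and from 6.16 to 6.59 in control livers (log2 difference 0.35, SE 0.20, unadjusted p = 0.124 in limma), and its difference was 0.57 and past the nominal threshold without Trpm6-deficient 2, but 0.23 without Trpm6-deficient 1. Nr4a2 ranged from 6.64 to 6.75 in Trpm6-deficient and from 6.59 to 6.64 in control livers, and Nr4a3 from 5.41 to 5.48 in Trpm6-deficient and from 5.24 to 5.60 in control livers. Of 21 measured immediate early genes outside the family, none was past the nominal threshold and the median log2 difference was 0.02.
The receptors without a DNA-binding domain, which bind other receptors and repress them, did not pass the test. Nr0b2, which encodes SHP, the repressor that FXR induces, was at 10.07, 9.91 and 10.01 in Trpm6-deficient livers 1 to 3, against 9.43, 10.17, 9.89 and 10.43 in controls 1 to 4. The controls spread over a wider range (SD 0.43) than the Trpm6-deficient livers (SD 0.08), and the 95% interval of the difference, -0.53 to 0.57, is among the widest here. Nr0b1, which encodes DAX-1, known from the adrenal gland, ranged from 4.79 to 4.98 in Trpm6-deficient and from 4.66 to 5.03 in control livers.

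As the deposited values carry no detection call, the levels were set beside those of 1023 probe sets of olfactory receptor genes, taken as silent in liver and used only as a rough guide, with a median of 4.34 and a 95th percentile of 5.97. Of the 42 receptor genes, 35 had a group mean above that percentile, and 7 did not: Vdr, Esr2, Pgr, Hnf4g, Rorb, Nr4a3 and Nr0b1. For these 7 the values cannot be told apart from those of silent genes, so a difference in their mRNA may not have been measured. All 7 genes past the nominal threshold were above the percentile in both groups. In a piece of liver, fewer cells of a type and less RNA per cell cannot be told apart.

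**Figure D4:**
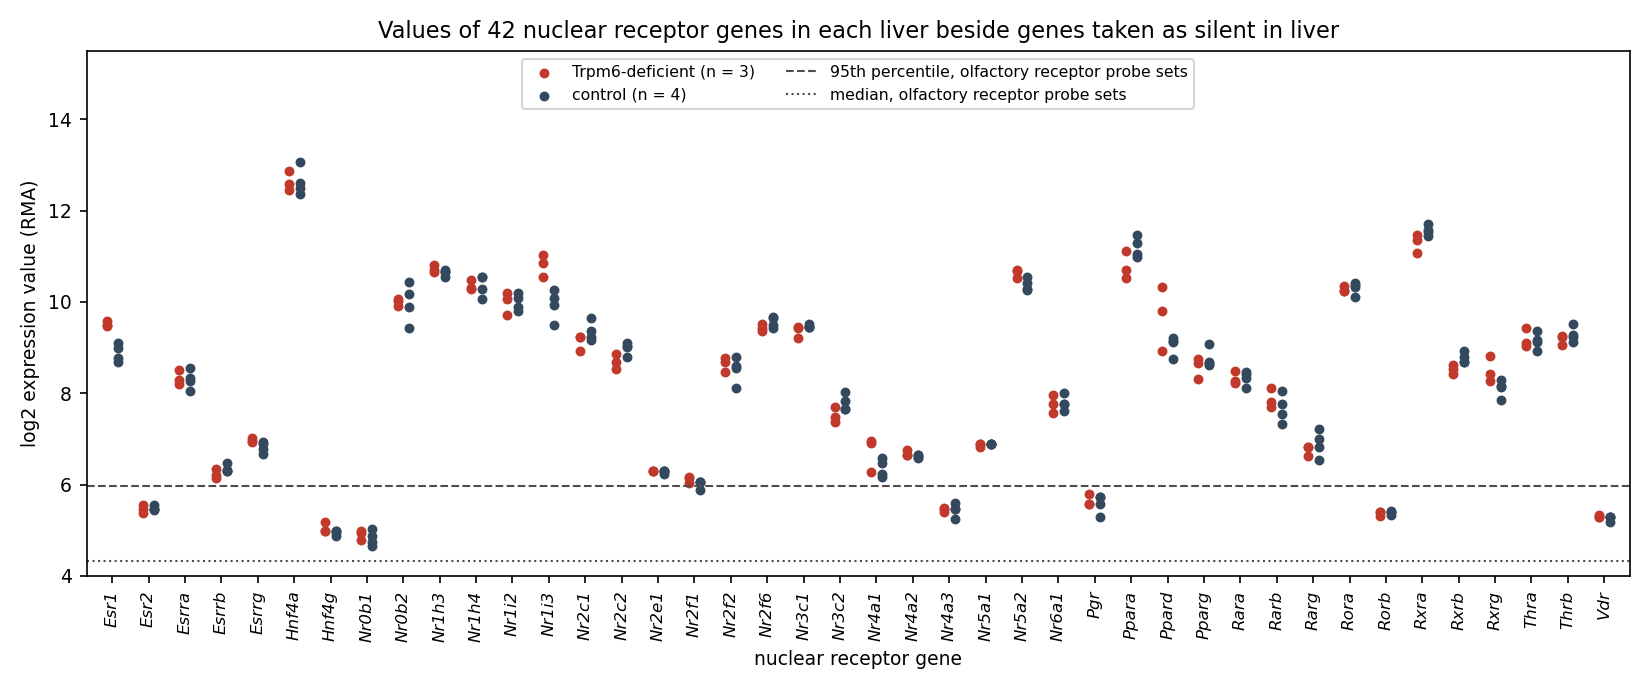
Log2 values (y axis) of the 42 receptor genes in each liver, with Trpm6-deficient (n = 3) left of control (n = 4) for each gene in alphabetical order; the dashed and dotted lines are the 95th percentile (5.97) and the median (4.34) of olfactory receptor probe sets. Esr2, Hnf4g, Nr0b1, Nr4a3, Pgr, Rorb and Vdr lie below the dashed line.

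Partners of the receptors were next compared, in lists of 20 coactivators, 11 measured corepressors and 15 measured chaperones. Ppargc1a, which encodes PGC-1 alpha, a coactivator of PPAR alpha, HNF4 alpha, the estrogen-related receptors and others, was the only coactivator gene past the nominal threshold. It was at 9.84, 9.25 and 10.28 in Trpm6-deficient livers 1 to 3, against 8.91, 9.18, 8.49 and 8.81 in controls 1 to 4. All Trpm6-deficient livers were above all controls, Trpm6-deficient 2 by a small margin (log2 difference 0.94, SE 0.27, adjusted p = 0.562 in limma). Among corepressors, Gps2, a subunit of the NCoR complex, was the only one past that threshold (0.37, adjusted p = 0.699), which held in 1 of 7 fits with a liver left out and was 0.23 without Trpm6-deficient 3, and none of the chaperones was. Past the nominal threshold were 5% of coactivators and 9.09% of corepressors, against 7.01% of all genes. The median log2 differences of the 3 lists were 0.01, -0.01 and -0.06, against -0.0058 for all genes.

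Enzymes that make or break down receptor ligands held 2 genes that passed an adjusted p of 0.1, both of oxysterol breakdown. Of 26 measured, 6 were higher and 2 lower past the nominal threshold (30.8%, against 7.01% of all genes). Cyp7b1, the oxysterol 7 alpha-hydroxylase of the acidic bile acid pathway, was at 9.53, 10.03 and 8.58 in Trpm6-deficient livers 1 to 3, against 12.58, 12.71, 12.71 and 12.46 in controls 1 to 4. It fell by 3.23 on the log2 scale (SE 0.32, adjusted p = 0.0660 in limma). Cyp39a1, a hydroxylase of another oxysterol, was at 11.50, 11.67 and 11.68 in Trpm6-deficient livers 1 to 3, against 10.13, 9.85, 10.06 and 10.60 in controls 1 to 4, and rose by 1.46 on that scale (SE 0.17, adjusted p = 0.0903 in limma).
For both genes every liver of one group lay apart from every liver of the other. The adjusted call of Cyp7b1 was lost without Trpm6-deficient 1 or without any 1 control (adjusted p = 0.123 to 0.287), and that of Cyp39a1 without any 1 liver other than control 4 (adjusted p = 0.163 to 0.345). Akr1d1, the steroid 5 beta-reductase of bile acid synthesis, and Hsd11b1, which regenerates active glucocorticoid, had log2 differences of 0.66 and 0.38 with adjusted p-values of 0.202 and 0.273.

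The known target genes of the receptors were counted by receptor, in lists that share some genes. Of 19 measured CAR targets, 9 were higher and none lower past the nominal threshold (3.59% and 3.43% of all genes), with a median log2 difference of 0.39, against -0.0058 for all genes. Cyp2b10, the classic CAR target, was at 9.70, 10.04 and 7.94 in Trpm6-deficient livers 1 to 3, against 5.66, 5.69, 6.12 and 6.29 in controls 1 to 4 (log2 difference 3.29, SE 0.51, adjusted p = 0.180 in limma). Trpm6-deficient 3, the liver with the highest Nr1i3 value, had the lowest Cyp2b10 value of its group. Slco1a4, an uptake transporter gene, and the cytochrome genes Cyp2c37 and Cyp2c54 had log2 differences of 1.72, 0.66 and 0.45, with adjusted p-values of 0.132, 0.377 and 0.389. Of 18 measured PXR targets, several of them also CAR targets, 8 were higher and none lower, with a median of 0.36; Papss2, which makes the sulfate donor, and Abcb1a, a drug efflux pump gene, had log2 differences of 0.68 and 1.22. Cyp2b10 and Slco1a4 are in both lists. Cyp3a11, another gene of the PXR list, had a log2 difference of 0.02 (95% interval -0.80 to 0.83) and was singled out after its values were seen. None of the genes in these 2 lists passed an adjusted p of 0.1.

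Targets of the bile acid and oxysterol receptors were likewise higher where they passed the nominal threshold. Among all genes, 3.59% were higher and 3.43% lower past it. Of 15 measured FXR targets, 5 were higher and none lower (median 0.14), led by Sdc1, a heparan sulfate proteoglycan gene (0.51), Fgfr4, the receptor gene for intestinal FGF15 (0.29), the bile acid exporter gene Slc51b (1.05) and Kng1, the kininogen gene (0.14). Of 15 measured LXR targets, 6 were higher and none lower (median 0.17), led by Pnpla3, a lipase gene (0.66), the sterol exporter genes Abcg8 (0.44) and Abcg5 (0.38) and Srebf1, a regulator of fatty acid synthesis (0.66). Of 14 measured NR5A2 targets, the 2 past the threshold were Abcg5 and Abcg8, both higher, and the median was 0.16. Without Trpm6-deficient 3, its highest liver, Slc51b had a difference of 0.65, and it was not past the threshold without control 2 or without control 3. Abcg5 and Srebf1 each stayed past the threshold in 3 of 7 fits with a liver left out. None of these genes passed an adjusted p of 0.1, and the FXR, LXR and NR5A2 lists each hold 1 receptor gene described above.

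PPAR alpha targets lay on both sides of 0. Of 27 measured, 8 were higher and 4 lower past the nominal threshold (44.4%, against 7.01% of all genes), with a median of 0.03. Abcd2, a peroxisomal fatty acid transporter gene, was at 9.66, 10.05 and 9.43 in Trpm6-deficient livers 1 to 3, against 7.08, 7.16, 6.22 and 7.53 in controls 1 to 4, and rose by 2.72 on the log2 scale (SE 0.32, adjusted p = 0.0879 in limma). That call was lost when any 1 liver was left out, with adjusted p-values of 0.164 to 0.283. Acot3, an acyl-CoA thioesterase gene, had a log2 difference of 2.19, whereas Creb3l3, the gene of a liver transcription factor, and Pex11a, a gene of peroxisome division, had differences of -0.56 and -0.45. Of 11 measured PPAR gamma targets of fatty liver, the 2 (18.2%) past the threshold were both lower. They were the fatty acid-binding protein genes Fabp4 (-0.42) and Fabp2 (-1.09). Fabp2 stayed past it in 3 of 7 fits with a liver left out and was at -0.62 without Trpm6-deficient 3.

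The hormone receptor and HNF4 alpha targets had medians near 0. Past the nominal threshold were 16.7% of glucocorticoid receptor, 18.8% of thyroid hormone receptor and 10% of retinoic acid receptor targets. For HNF4 alpha targets and clock genes the shares were 41.2% and 12.5%, against 7.01% of all genes. Of 18 glucocorticoid receptor targets measured, 2 were higher, Pdk4, which restrains glucose oxidation (1.52), and the metallothionein gene Mt1 (2.16), and 1 was lower, the transcription factor gene Klf9 (-0.55), with a median of 0.09. Of 16 thyroid hormone receptor targets, Serpina7, the thyroxine-binding globulin gene (1.77), and Acaca, the acetyl-CoA carboxylase gene (0.65), were higher and Klf9 was lower, with a median of -0.02. Acaca was at 0.43 and not past the threshold without Trpm6-deficient 3. Klf9 stayed past the threshold in 2 of 7 fits with a liver left out, and Mt1 in 4 of 7. Mt1 ranged from 11.45 to 12.47 in Trpm6-deficient and from 8.13 to 11.01 in control livers. Of 10 retinoic acid receptor targets, Pdk4 was the only one past the threshold (median 0.10). Of 17 HNF4 alpha targets, 5 were higher and 2 lower (median -0.01), among them the apolipoprotein gene Apoa4 (0.62), the coagulation factor gene F7 (0.29), the male-biased cytochrome gene Cyp2d9 (-0.77) and the carboxylesterase gene Ces3a (-0.90). Of 16 measured clock genes, Cry1 (0.56) was higher and Nr1d2 (-0.88) lower, with a median of -0.15, and -0.0050 without control 3.

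**Figure D5:**
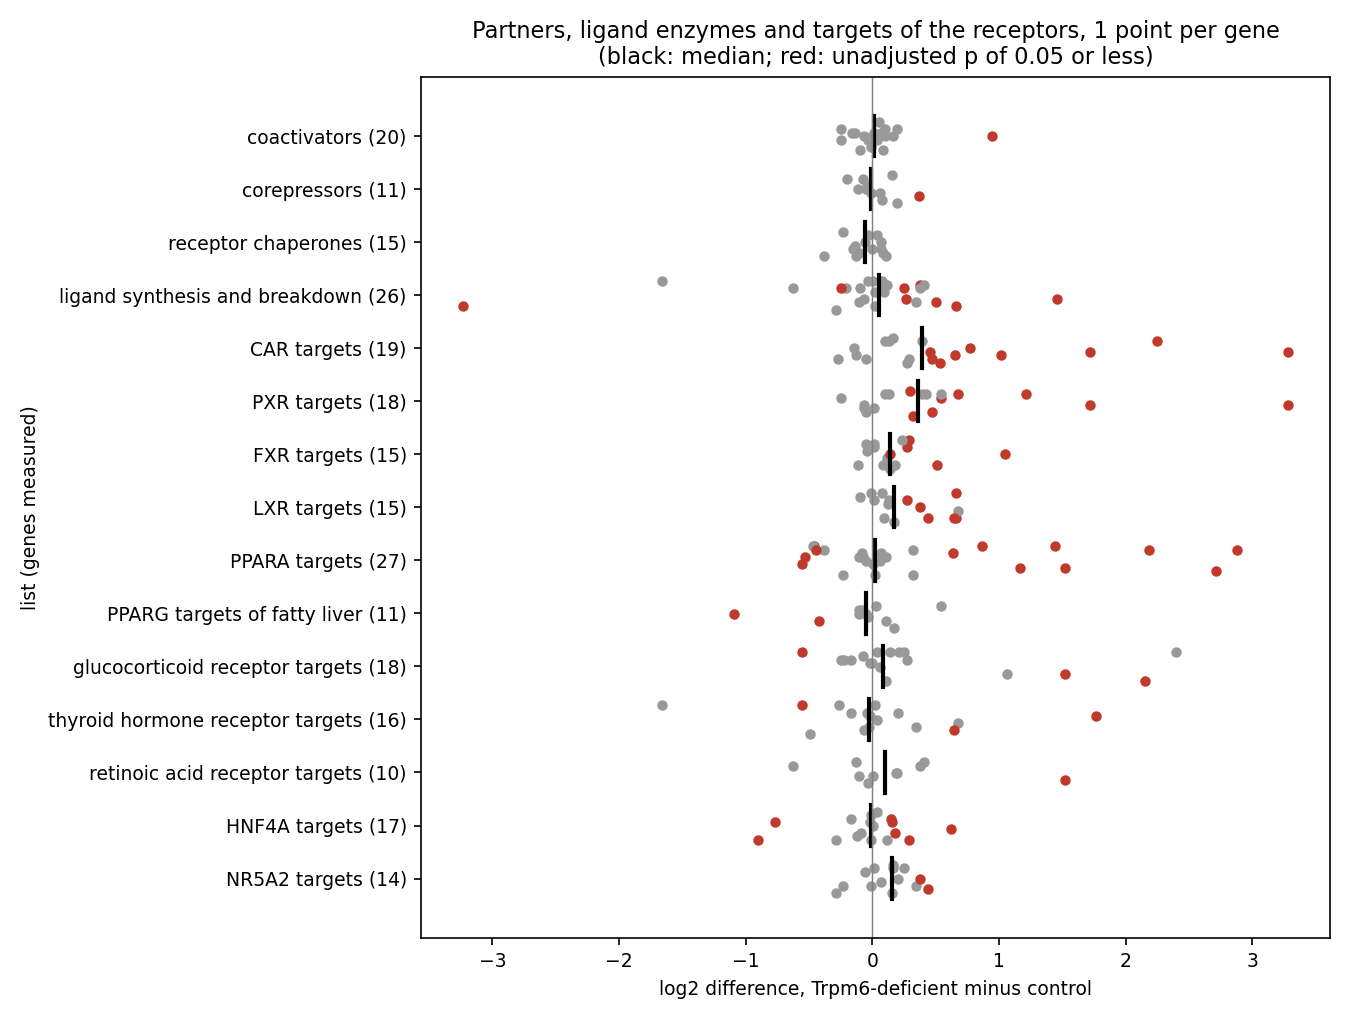
Log2 difference (Trpm6-deficient minus control, x axis) of each measured gene in lists of receptor partners, ligand enzymes and targets, with the number measured beside each list, the median as a black bar and genes past the nominal threshold in red. The medians of CAR (0.39) and PXR (0.36) targets lie farthest to the right, and the lowest point is Cyp7b1 (-3.23).

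Markers of cells other than hepatocytes were read beside these values. The nominal threshold was passed by 7.01% of all genes. Of 10 stellate cell markers, Reln (0.30) and Des (0.28) were higher past the nominal threshold. The list averaged 8.55 to 8.66 in Trpm6-deficient and 8.46 to 8.65 in control livers, with a median log2 difference of -0.01. Des stayed past the threshold in 2 of 7 fits with a liver left out. Of 5 measured cholangiocyte markers, Krt19 (0.33) was higher, which held in 3 of 7 fits with a liver left out. Of 5 measured markers of red blood cell precursors, only Alas2 (-1.65, adjusted p = 0.192 in limma) was past the threshold, and it was lower. That list averaged 6.94 to 7.14 in Trpm6-deficient and 7.30 to 7.54 in control livers, but its median log2 difference was -0.06. None of 8 lymphocyte markers or 7 neutrophil markers was past that threshold. The part of these cells in the receptor values was not tested.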

How the data were processed

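Liver RNA was hybridised to GeneChip Mouse Gene 1.0 ST arrays, 1 per mouse. The authors corrected the background, normalized and summarized the probes with RMA in Affymetrix Expression Console 1.4.0, according to the submitters' processing notes, and deposited log2 values. RMA draws low values towards a common floor and keeps no depth or detection call, and with 7 arrays precision is limited. Gene symbols came from the platform annotation (21789 probe sets with 1 symbol, 1621 with several, 12146 with none); only probe sets with 1 symbol were named, and the brightest by mean over the 7 arrays was used per gene.

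All 35556 probe sets were fitted with limma 3.58.1 in R 4.3.3 (lmFit and eBayes, no covariate) and adjusted by Benjamini-Hochberg over all of them; a call was an adjusted p of 0.1 or less, the rate in the study's methods. Shares given for all genes are over 19938 genes. The procedure was tested on simulated data. Each mouse gave 1 sample, and p-values measure the spread between these livers. The receptor genes, the lists and the tests were chosen with earlier results of these data known. Values per liver are given for receptor genes past the nominal threshold (unadjusted p up to 0.05) and for 12 receptors best known in liver. In each list up to 4 genes with the smallest p at or below 0.05 are named. Cyp3a11, Dbp and Arntl were named outside this rule. Alternatives were the replicate block, age as a covariate, each liver left out, a filter on dim probe sets (mean log2 below 5), quantile normalization, median centring, eBayes with trend and robust, the methods' t-test, the mean of probe sets, the exact permutation test and an adjusted p of 0.05. Promoter windows and their coordinates came from RefSeq (GRCm38.p6), matched by symbol; Nr5a1, Nr3c1, Thra and Hnf4g have no window in the table used. Figures were drawn with matplotlib 3.10.9.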

Additional observations from a re-analysis of the deposited data

Results flagged for a closer look

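Among 84 genes checked, 42 of them receptor genes, 8 genes had 1 control liver far from the other 3, judged by its gap to the nearest other control relative to the range of all 4; about 1 in 20 groups is singled out so by chance. The Trpm6-deficient group, with 3 livers, was not checked.

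Of these, 5 are receptor genes. Control 2 had a Vdr value of 5.18, against 5.29 in the other controls, and an Nr3c1 value of 9.51, against 9.45. Control 3 had an Esrrb value of 6.48, against 6.29 to 6.31 in the other controls. Control 1 was at 6.23 for Nr2e1 and at 5.88 for Nr2f1, with the other controls at 6.29 and 6.06. The other 3 controls share a single value for 4 of these genes. Of the listed genes, Hsd11b1 was at 12.25 in control 4 and at 12.10 to 12.12 in the others, Cyp2d9 was at 11.92 in control 3 and at 12.17 to 12.20 in the others, and Creb3l3 was at 10.80 in control 3 and at 10.79 in the others, a gap of 1 rounding step.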

How the results depend on the processing

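No receptor gene reached an adjusted p of 0.1 under any alternative. Esr1 and Nr1i3 stayed past an unadjusted p of 0.05 in all 15 alternatives that refitted the arrays, Rxrb in 13, Nr5a2 in 11, Nr2c2 in 9, Rxrg in 7 and Rxra in 5, and none of these 7 changed sign. Leaving out 1 liver brought 5 further receptor genes past it, Ppara, Ppard, Nr3c2, Nr4a1 and Esrrg. Of 41 other named genes past it, 13 lost it without at least 1 liver. The counts of 4 higher and 3 lower receptor genes became 2 and 1 with the exact permutation test. With 35 splits, only genes at its smallest p of 0.0286 can pass, and its share over all genes was not computed. When each liver was left out, the counts lay between 2 and 4 higher and between 1 and 4 lower. In those fits 5.3% to 7.96% of all genes passed the unadjusted threshold. The 46 probe sets at an adjusted p of 0.1 became 1 with the replicate block, 8 with age as a covariate, 70 with the filter on dim probe sets, 8 with the methods' t-test, 14 at an adjusted p of 0.05 and 7 to 69 with each liver left out. The 12 lower genes of the lists became 7 with the methods' t-test. The cause of these shifts was not tested.

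Of 628 values of receptor genes under alternatives, 39, in 13 genes close to 0, reversed their sign and 589 did not. Some of the 589 could not reverse. The filter on dim probe sets, eBayes with trend and robust and the methods' t-test leave the log2 difference as it was. So does the mean of probe sets, as each receptor gene has 1 probe set. Nr1h4, with a difference of 0, had no sign to reverse. With the replicate block the log2 differences were 0.06 for Nr1i2, 0.037 for Rara, -0.05 for Esrra and 0.0033 for Rora. With age as a covariate they were -0.024 for Hnf4a, -0.012 for Nr4a3 and -0.028 for Nr0b2. After quantile normalization they were -0.019 for Hnf4a and -0.0052 for Nr4a3, and after median centring -0.0025 for both. With each liver left out, the ranges of these 13 genes were -0.063 to 0.028 for Esr2, -0.05 to 0.12 for Esrra, -0.11 to 0.15 for Hnf4a, -0.17 to 0.17 for Nr0b2, -0.11 to 0.13 for Nr1i2, -0.0067 to 0.22 for Nr2f2, -0.057 to 0.063 for Nr4a3, -0.13 to 0.075 for Nr6a1, -0.027 to 0.12 for Pgr, -0.09 to 0.04 for Rara, -0.10 to 0.0033 for Rora, -0.037 to 0.013 for Rorb and -0.075 to 0.13 for Thra. The range of Nr1h4, -0.097 to 0.06, also crossed 0.

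Whether the replicate numbers of the labels pair the livers was not settled. Same-numbered livers deviated together with correlations of 0.335, 0.260 and 0.088. Trpm6-deficient 1 and 2 were most like controls 1 and 2, while Trpm6-deficient 3 was most like control 4. With the replicate block, 4 higher and 3 lower receptor genes were past the unadjusted threshold, as were 8.38% of all genes. They were Esr1, Nr1i3, Nr5a2 and Rxrb together with Nr2c1, Nr3c2 and Nr4a1, while Rxra, Rxrg and Nr2c2 were no longer past it. In that fit Cyp7b1, Cyp39a1 and Abcd2 had adjusted p-values of 0.388, 0.388 and 0.372 in limma.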
